A study of Mus musculus with 14 samples.

Results

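The Nkx2 genes encode homeodomain transcription factors of the NK2 family. The 7 mouse members Nkx2-1, Nkx2-2, Nkx2-3, Nkx2-4, Nkx2-5, Nkx2-6 and Nkx2-9 were taken by name from the RefSeq annotation of GRCm38, and all 7 were found among its 21779 protein-coding genes. They lie at 5 places. Nkx2-1 (chr12:56531935-56536908) and Nkx2-9 (chr12:56611389-56613569) are neighbours 74.5 kb apart, and Nkx2-4 (chr2:147083337-147085439) and Nkx2-2 (chr2:147176485-147195434) are neighbours 91 kb apart. Nkx2-3 (chr19:43612325-43615892), Nkx2-5 (chr17:26838664-26844988) and Nkx2-6 (chr14:69171802-69175540) stand without another member beside them. For each gene, every peak of the deposited lists that touched the gene span extended by 5 kb on each side was read.

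RNF2 (RING1B) is the catalytic ubiquitin ligase of Polycomb repressive complex 1, which places ubiquitin on histone H2A and holds developmental regulators silent in embryonic stem cells. BAP1 is the deubiquitinase that removes this mark. Each Nkx2 factor is best known from a tissue that stem cells have not yet formed: thyroid, lung and ventral forebrain for Nkx2-1, ventral neural tube and endocrine pancreas for Nkx2-2, heart for Nkx2-5, and spleen and gut for Nkx2-3.

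The series measured binding by chromatin immunoprecipitation and sequencing (ChIP-seq) in mouse embryonic stem cells of C57BL/6 background, labelled E3.5 to E4.5, with 7 ChIP libraries and 7 inputs. RNF2 was precipitated from 2 libraries of BAP1 knockout cells, 2 of wild-type cells and 1 of RNF2 knockout cells, the antibody control. BAP1 was precipitated from 1 library of BAP1 C91A cells, given as Bap1C91A/- in the protocol, and from 1 of BAP1 knockout cells, the control for that antibody. The C91A form lacks the catalytic cysteine. Every culture, wild type included, had received 100 nM 4-OHT (4-hydroxytamoxifen) together with the caspase inhibitor emricasan at 10 µM over 4 days. The C91A cells had also been crosslinked with disuccinimidyl glutarate, which is not stated for the other cells analysed here. No source used here gives the number of clones per genotype, and nothing says that libraries of 1 genotype came from separate cultures.

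Depth and peak calling differed between libraries in ways that touch the values below. The first RNF2 libraries held 54.1 M tags in BAP1 knockout and 58.4 M in wild type, and the second 139 and 149 M. The RNF2 knockout library held 119 M, and the BAP1 ChIP libraries 415 M (C91A) and 32.5 M (BAP1 knockout control). Counting main chromosomes alone, the lists held 7946 and 39872 peaks in BAP1 knockout, 4038 and 28770 in wild type, 0 in RNF2 knockout, 2395 in C91A and 144 in the BAP1 knockout control. Genotypes were therefore set side by side within the first and within the second libraries. An exact permutation test of 2 libraries against 2 cannot give a two-sided p below 0.333, so none is given for a genotype difference.

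The start regions of the genes show what the 2 proteins were found on. RefSeq (GRCm38.p6) gives a 300-base window, from 250 bases before to 50 after the annotated start, for 6 of the 7 members, Nkx2-6 being the one not in that table. All 300 bases of all 6 windows lay under RNF2 peaks in both BAP1 knockout and both wild-type libraries. BAP1 peaks of C91A cells covered 200 bases at Nkx2-1, 108 at Nkx2-4 and 36 at Nkx2-2, and 0 at Nkx2-3, Nkx2-5 and Nkx2-9. The share of all promoter windows under such peaks is not given here. By the wider rule of a peak within 5 kb of the gene span, 14.2% of protein-coding genes had RNF2 in all those libraries. By that rule 5.08% had BAP1 in C91A cells. The 3 windows with BAP1 are printed below 5′ to 3′ on the minus strand, followed by that of Nkx2-5, which had none and held the fewest CpG dinucleotides; each CG is in capitals. They lie at chr2:147085296-147085595, chr12:56536859-56537158, chr2:147186353-147186652 and chr17:26841516-26841815, in the order printed.
Nkx2-4: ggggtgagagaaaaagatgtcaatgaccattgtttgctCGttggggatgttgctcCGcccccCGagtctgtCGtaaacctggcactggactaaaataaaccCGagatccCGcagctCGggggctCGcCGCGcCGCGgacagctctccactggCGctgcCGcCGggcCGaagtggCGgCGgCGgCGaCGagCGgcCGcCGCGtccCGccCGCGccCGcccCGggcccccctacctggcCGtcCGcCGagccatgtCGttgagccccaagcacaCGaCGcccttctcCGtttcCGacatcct
Nkx2-1: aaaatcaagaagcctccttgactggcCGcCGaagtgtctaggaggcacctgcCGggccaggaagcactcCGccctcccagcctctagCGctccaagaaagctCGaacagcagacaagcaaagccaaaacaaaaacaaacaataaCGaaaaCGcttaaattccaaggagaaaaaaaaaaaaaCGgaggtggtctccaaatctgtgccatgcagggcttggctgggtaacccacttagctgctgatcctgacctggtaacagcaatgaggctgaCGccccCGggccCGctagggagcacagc
Nkx2-2: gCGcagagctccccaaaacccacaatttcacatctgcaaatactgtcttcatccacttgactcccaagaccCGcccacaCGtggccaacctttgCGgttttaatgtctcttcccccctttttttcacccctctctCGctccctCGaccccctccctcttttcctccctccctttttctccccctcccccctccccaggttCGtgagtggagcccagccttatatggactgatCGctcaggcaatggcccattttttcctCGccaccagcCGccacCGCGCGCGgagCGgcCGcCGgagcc
Nkx2-5: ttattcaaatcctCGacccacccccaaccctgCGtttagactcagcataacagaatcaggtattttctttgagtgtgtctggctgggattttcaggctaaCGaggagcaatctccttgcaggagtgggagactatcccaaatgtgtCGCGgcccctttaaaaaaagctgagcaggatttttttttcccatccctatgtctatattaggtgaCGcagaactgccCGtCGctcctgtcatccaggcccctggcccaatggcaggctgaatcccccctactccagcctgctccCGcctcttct

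CG occurs 38 times at Nkx2-4, 17 times at Nkx2-2, 15 times at Nkx2-3 and at Nkx2-9, 12 times at Nkx2-1 and 9 times at Nkx2-5. The median over 32851 mouse promoters of the same length is 7, and 94.6% of them hold at least 1. At least 38 occur in 4.95% of promoters, at least 17 in 31.4% and at least 9 in 45.8%, so Nkx2-4 alone of the 6 lay far into the CpG-rich end. CpG reads the same on both strands. The windows with BAP1 held 38 (Nkx2-4), 17 (Nkx2-2) and 12 (Nkx2-1), the last with the longest BAP1 stretch. Those without BAP1 held 15 (Nkx2-3 and Nkx2-9) and 9 (Nkx2-5). A relation between CpG number and BAP1 was not tested.

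All 7 members had an RNF2 peak in all 4 libraries of BAP1 knockout and wild-type cells, which was true of 14.2% of protein-coding genes. Library by library, the share of genes with a peak was 29.6% and 66.6% in BAP1 knockout and 14.5% and 58.8% in wild type, so 7 of 7 in a second library stands against a background in which most genes had a peak. The RNF2 knockout library listed no peak at any member (0 of 7, background 0%). The domains were also long. A domain is here the widest run of overlapping or touching peaks that reaches the window. Its median over the members was 8.84 and 10.7 kb in BAP1 knockout and 5.08 and 10.7 kb in wild type, whereas over all genes with a peak it was 1.28 and 1.31 kb in BAP1 knockout and 0.963 and 0.825 kb in wild type. A domain of at least 10 kb, a threshold chosen after the values were seen, was present at 3 and 4 of 7 members in BAP1 knockout, beside 0.748% and 1.37% of all genes. In wild type it was present at 3 and 4 of 7, beside 0.597% and 1.18%.

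**Figure D1:**
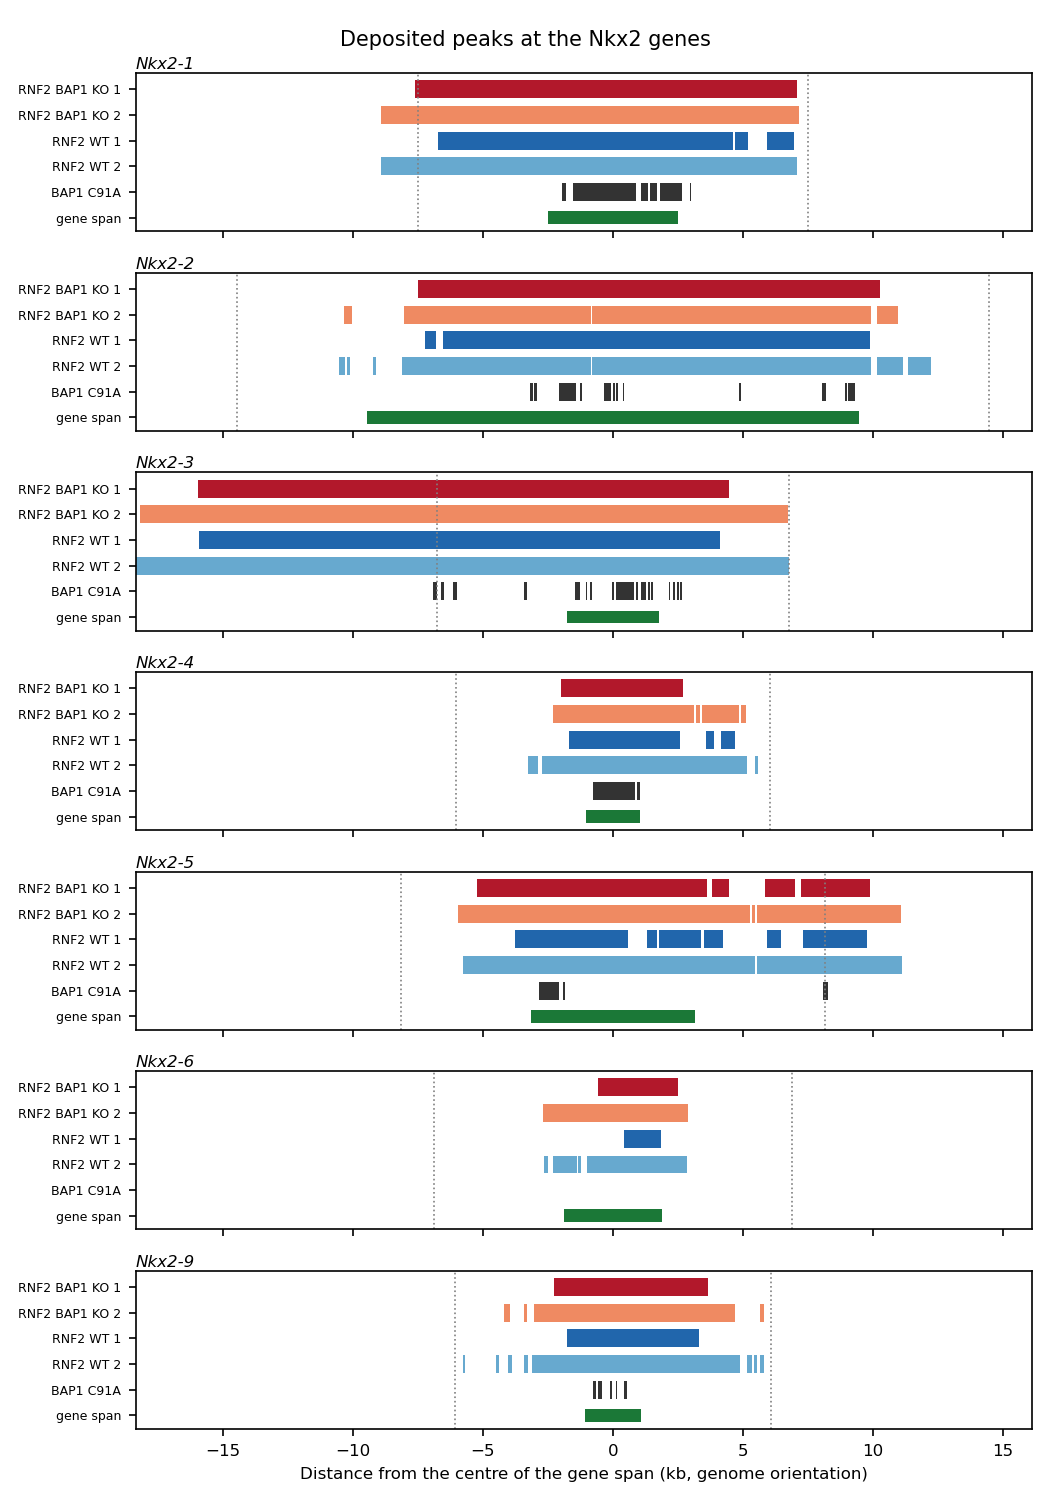
Peaks at each Nkx2 gene, by distance from the centre of the gene span in kb and in genome orientation; rows are the RNF2 libraries of BAP1 knockout and wild type, the BAP1 library of C91A cells and the gene span, and dotted lines mark the span extended by 5 kb. An RNF2 peak lay at all 7 genes in all 4 libraries, at Nkx2-3 in runs of 20.0 to 25.1 kb, while BAP1 peaks were short and missing at Nkx2-6.

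Nkx2-1 specifies thyroid, lung and ventral forebrain, and Nkx2-4, a close relative, is expressed in the developing hypothalamus. RNF2 peaks covered 14.5 and 14.6 kb of the 14974 bp window of Nkx2-1 in BAP1 knockout, against 12.9 and 14.6 kb in wild type. The window was thus nearly full in 3 of the 4 libraries, with the first wild-type library lowest. The domain itself was 14.7 and 16.1 kb long in BAP1 knockout and 11.4 and 16.0 kb in wild type, far longer than the gene span of 4.97 kb. At Nkx2-4 the covered length was 4.72 and 7.14 kb in BAP1 knockout and 5.14 and 8.42 kb in wild type, so that the BAP1 knockout library was the lower one in each pair. Its domain was 4.72 and 5.45 kb in BAP1 knockout and 4.30 and 7.90 kb in wild type. The first wild-type library owed its greater covered length to 2 small peaks of 309 and 527 bp beside the domain, which the first BAP1 knockout library did not list.

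Nkx2-2 patterns the ventral neural tube and is needed for pancreatic beta cells, and Nkx2-9 is expressed beside it in the ventral neural tube. Nkx2-2 had 17.7 and 19.1 kb covered in BAP1 knockout and 16.8 and 20.3 kb in wild type, the greatest covered lengths of the family in all 4 libraries. Its window is also the longest, at 28950 bp. Both first libraries held 1 domain over most of the gene, 17.7 kb in BAP1 knockout and 16.4 kb in wild type. The second libraries listed that stretch as separate peaks, the widest of 10.7 kb in BAP1 knockout and 10.7 kb in wild type, with breaks of only 56 and 71 bp between chr2:147185099 and chr2:147185171. Joined across gaps of up to 1 kb, the runs of the second libraries were 19.005 kb in BAP1 knockout and 22.75 kb in wild type. Nkx2-9 had 5.92 and 8.24 kb covered in BAP1 knockout and 5.08 and 9.02 kb in wild type, and the 2 genotypes overlapped.

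Nkx2-5 is the early cardiac factor and Nkx2-6 is expressed in the pharyngeal pouches and the caudal heart of the mouse embryo. At Nkx2-5 the covered length was 11.6 and 14.0 kb in BAP1 knockout and 8.48 and 13.8 kb in wild type. The first wild-type library was the low one, with 6 peaks where the second had 2. A second block of RNF2 lay upstream, at chr17:26849061-26851708 in the first and chr17:26847361-26852906 in the second BAP1 knockout library, and at chr17:26849148-26851614 and chr17:26847359-26852941 in the wild-type libraries. Nkx2-6 had the smallest covered length of the family in each library, 3.07 and 5.54 kb in BAP1 knockout and 1.46 and 5.03 kb in wild type. It is also the member without a BAP1 peak.

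Nkx2-3 is required for spleen and gut-associated lymphoid tissue and is expressed in the midgut mesoderm. Its single RNF2 domain was the longest of the family in every library, at 20.4 and 24.9 kb in BAP1 knockout and 20.0 and 25.1 kb in wild type. With peaks joined across gaps of up to 3 kb, Nkx2-1 was longer in the first BAP1 knockout library, at 23.2 kb against 20.4 kb. Among all RNF2 peaks of the same list the unjoined Nkx2-3 domain ranked 14th and 15th by length in BAP1 knockout and 15th and 22nd in wild type. The domain ran well past the window on the side before the start, to chr19:43595929 in the second BAP1 knockout and chr19:43595751 in the second wild-type library. Within the window, 82.9% and 99.5% were covered in BAP1 knockout and 80.4% and 100% in wild type.

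**Figure D2:**
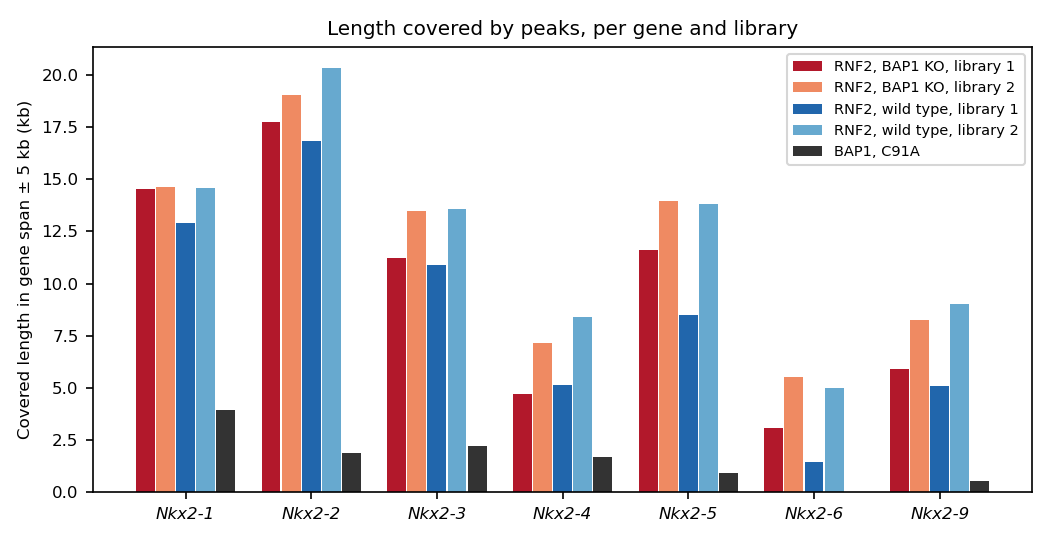
Length of the gene span extended by 5 kb that lay under peaks, in kb, as 1 bar per gene and library, with no error bars since each bar is 1 library. Nkx2-2 is highest and Nkx2-6 lowest in all 4 RNF2 libraries, and the BAP1 bars reach 3.96 kb at Nkx2-1.

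The order of the members by covered length was close to the same in the 4 libraries, with Nkx2-2, Nkx2-1, Nkx2-3 and Nkx2-5 above Nkx2-9, Nkx2-4 and Nkx2-6. Not all neighbours in this order were apart: Nkx2-3 and Nkx2-5 changed places, with 11.2 and 13.5 kb for Nkx2-3 and 11.6 and 14.0 kb for Nkx2-5 in BAP1 knockout, and 10.9 and 13.6 kb against 8.48 and 13.8 kb in wild type. Nkx2-9 and Nkx2-4 also overlapped over the libraries. Covered length is bounded by the window, which is 12.1 kb for Nkx2-4 and 28950 bp for Nkx2-2.

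The authors' fold enrichment at the summit, used only within a list, was above the median gene for every member in every RNF2 library. Nkx2-2 had 34.7 in the first BAP1 knockout library, where it was 10th of 7946 peaks, and 19.6 in the first wild-type library, where it was 42nd of 4038. Nkx2-4 had 31.2 in the first BAP1 knockout library (38th) and 18.0 in the first wild-type library (63rd). Nkx2-6 had the lowest values in those lists, 13.9 in BAP1 knockout and 8.03 in wild type, still above the medians over genes of 5.60 and 4.34. The second libraries cannot order the members, because with a fixed extension of 100 bp and 1 tag per position the pileup cannot pass 200. Every member reached that ceiling in both second libraries, apart from Nkx2-6 with 190 in wild type. Nkx2-9, for example, had a fold enrichment of 23.9 in the second BAP1 knockout library, the top value of that list, which 89 peaks shared.

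The paired loci were bound mainly at the genes, with a few short RNF2 peaks in between at Nkx2-1 and Nkx2-9. No list had a peak in the stretch between the windows of Nkx2-4 and Nkx2-2. Between the windows of Nkx2-1 and Nkx2-9, the second BAP1 knockout library listed 2 peaks of 384 and 891 bp, the stronger with a fold enrichment of 5.94, and the second wild-type library listed 1 peak of 144 bp and a fold enrichment of 3.01. The first libraries and the BAP1 list had none there, although the annotated lncRNA Gm26973 (chr12:56537190-56627767) runs through that interval. Over the 5 loci together, 257 kb long, RNF2 covered 68.8 and 83.4 kb in BAP1 knockout and 60.8 and 84.9 kb in wild type, and BAP1 covered 11.2 kb in C91A cells.

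The highest RNF2 summit, that of the peak with the highest fold enrichment in the window, lay downstream of the annotated start. In the first wild-type library this held for 6 of the 6 members with a start, at 1160 bp for Nkx2-9, 1223 for Nkx2-4, 2126 for Nkx2-2, 2132 for Nkx2-5, 2235 for Nkx2-3 and 3485 bp for Nkx2-1. Their median was 2129 bp, beside 320 bp over 1850 other genes with a peak and a start, of which 27.5% had the summit more than 1 kb downstream. In the first BAP1 knockout library the positions were near these for 5 members, for example 3433 bp at Nkx2-1 and 2191 bp at Nkx2-3. Whether a summit falls in an exon was not analysed here.

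The exceptions were Nkx2-5 and Nkx2-2. At Nkx2-5 the summit of highest fold enrichment lay in the upstream block, at chr17:26850160 in the first BAP1 knockout and chr17:26850130 in the second wild-type library, at −8595 and −8565 bp from the start. The peak in the gene was close to it: in the first BAP1 knockout library it had a fold enrichment of 24.7 against 25.2 upstream and a higher pileup (369.97 against 326), and in the second wild-type library both peaks stood at the ceiling of 200. At Nkx2-2 the second BAP1 knockout library had its highest summit at chr2:147194784, at −8382 bp from the start but still inside the gene span, with the same ceiling pileup of 200 as its downstream peak. Elsewhere the Nkx2-2 summit was near chr2:147184276, its place in the first wild-type library, close to the start of the antisense lncRNA Nkx2-2os at chr2:147184083. That lncRNA was named after its position had been seen. At Nkx2-6 the summits of the 4 libraries fell within 62 bp of each other, and at Nkx2-9 within 199 bp.

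**Figure D3:**
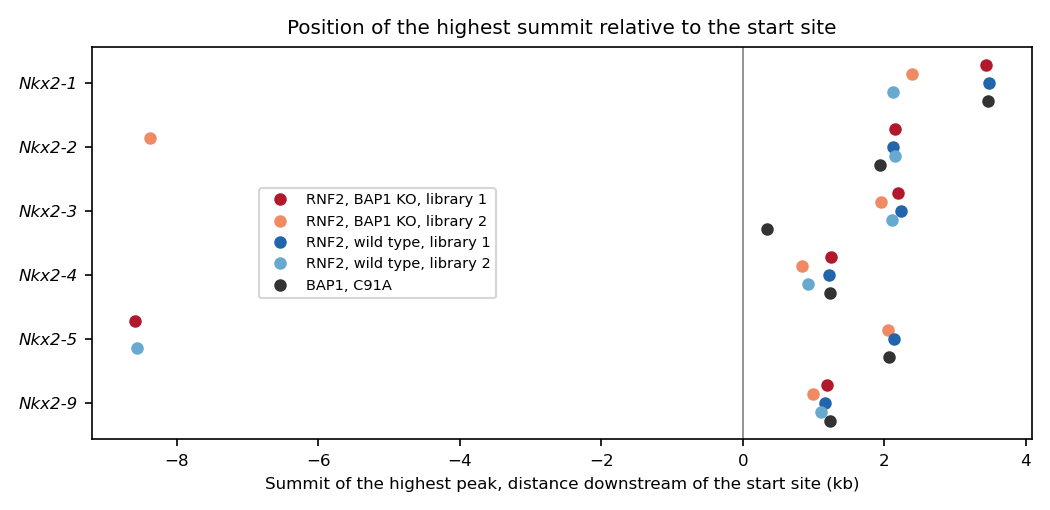
Distance in kb from the annotated start to the summit of the highest peak, positive downstream, for the 6 Nkx2 genes with a start; points are the RNF2 libraries of BAP1 knockout and wild type and the BAP1 library of C91A cells. Most points sit between 831 and 3485 bp downstream, 3 RNF2 points lie more than 8 kb upstream, and the BAP1 point of Nkx2-3 is the nearest to its start, at 348 bp.

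BAP1 was found at 6 of the 7 members in C91A cells, Nkx2-6 being without a peak, and at 0 of 7 in the BAP1 knockout control. The share over all protein-coding genes was 5.08% in C91A and 0.156% in BAP1 knockout cells. BAP1 in C91A cells together with RNF2 in both wild-type libraries marked the same 6 of 7 members and 2.43% of all genes. Among the 3163 genes with RNF2 in both wild-type libraries, 16.8% had BAP1. Both groups have 1 library each, with depth and fragment length that differ between them, and the disuccinimidyl glutarate step is stated only for the C91A library, so there is no replicate check and no test. At 415 M tags a peak at Nkx2-6 was not listed, which does not show that BAP1 is absent there.

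The 6 genes held 45 BAP1 peaks, 1.88% of the list, and they were short, with a median of 95 bp against 120 bp over the list. Nkx2-1 had 6 peaks over 3.96 kb, among them 1 of 2411 bp (chr12:56532878-56535288) that was the 4th longest of the list. Nkx2-4 had 2 peaks over 1.70 kb, and its peak of 1592 bp (chr2:147083628-147085219) had a fold enrichment of 5.75, 4th of the 2395. These were the strongest sites of the family, with −log10 q of 11.6 at Nkx2-4 and 8.99 at Nkx2-1.

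Nkx2-2 had 12 peaks over 1.88 kb, the longest of 632 bp with a fold enrichment of 4.91. At Nkx2-5 there were 3, covering 0.941 kb of the window, of which 1 of 780 bp lay in the gene and 1 of 207 bp (chr17:26849889-26850095) lay in the upstream RNF2 block. Nkx2-3 carried the most, 17 peaks of 56 to 724 bp over 2.24 kb of its window, none with a −log10 q of 5 or more. Nkx2-9 had 5 peaks of 50 to 182 bp over 0.523 kb, again none at that threshold. Thus 8 of the 45 peaks passed a −log10 q of 5 and 1 passed 10, against 430 and 24 of the 2395 in the list.

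**Figure D4:**
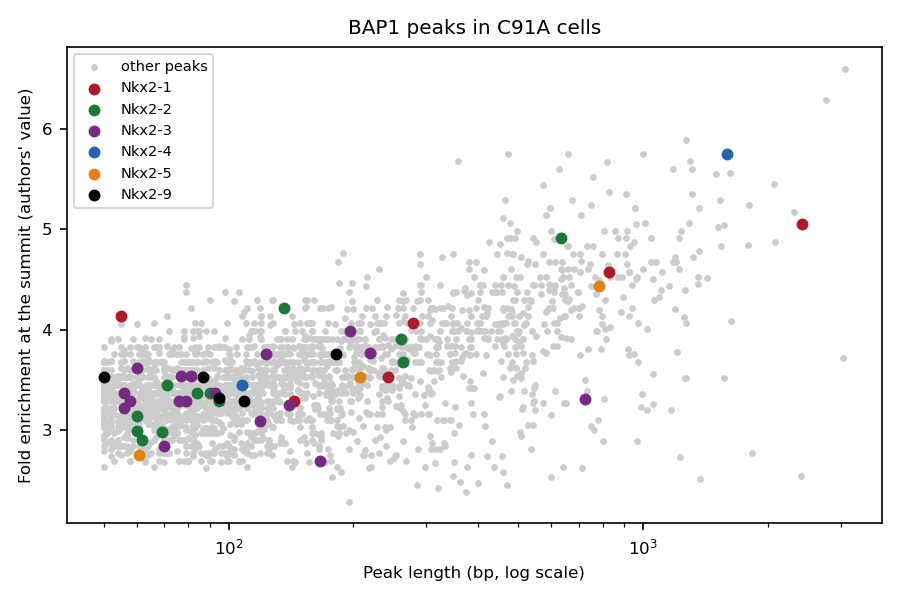
Each BAP1 peak of C91A cells by length in bp (log scale) and the authors' fold enrichment at its summit, with peaks at the Nkx2 genes coloured by gene and all others in grey. The long peaks of Nkx2-1 (2411 bp) and Nkx2-4 (1592 bp) lie at the upper right, whereas those of Nkx2-3 and Nkx2-9 stay under a fold enrichment of 4.

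BAP1 peaks sat within the RNF2 domains. All 45 lay wholly inside RNF2 peaks in both BAP1 knockout and both wild-type libraries. For the whole BAP1 list that share was 78.9% and 88.5% in BAP1 knockout and 76.6% and 84.3% in wild type. The sets are unlike, since the whole list includes peaks at genes without RNF2, whereas every member had RNF2. The window of Nkx2-3, which held 17 of the 45, was 80.4% to 100% covered over the 4 libraries. Little of that window was left outside RNF2. The highest BAP1 summit was 8 bp from the highest RNF2 summit of the first wild-type library at Nkx2-4, 11 bp at Nkx2-1, 62 bp at Nkx2-5, 71 bp at Nkx2-9 and 182 bp at Nkx2-2. At Nkx2-3 the distance was 1887 bp, with the BAP1 summit of highest fold enrichment (3.99) 348 bp past the start. That distance rests on the measure: the 724 bp BAP1 peak of Nkx2-3 had a fold enrichment of 3.31 but a higher pileup (32.1 against 25.9) and the same −log10 q of 4.59, and its summit at chr19:43614519 lay by the RNF2 summit at chr19:43614560. The median of the 6 was 66.5 bp, beside 289 bp over 524 other genes with both. Against the second wild-type library, whose pileup is at its ceiling, the median was 832.5 bp, beside 342.5 bp over 960 other genes, so the closeness held against the first wild-type library and not the second.

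In BAP1 knockout cells the first library had more RNF2 covered length than the first wild-type library at 6 of 7 members, all but Nkx2-4, and over all genes with coverage in either library this was true of 95.8%. The second library had more at 3 of 7, Nkx2-1, Nkx2-5 and Nkx2-6, against 86.4% of all genes with coverage in either library. Both shares, over 6529 and 14773 genes, include genes with a peak in BAP1 knockout alone, which count as having more. Every member had a peak in both genotypes, so the counts and the shares rest on unlike sets. The differences of the first pair, BAP1 knockout minus wild type, were 3.12 kb at Nkx2-5, 1.66 at Nkx2-1, 1.62 at Nkx2-6, 0.927 at Nkx2-2, 0.845 at Nkx2-9, 0.336 at Nkx2-3 and −0.423 kb at Nkx2-4. Those of the second pair were 0.519 kb at Nkx2-6, 0.138 at Nkx2-5, 0.082 at Nkx2-1, −0.067 at Nkx2-3, −0.780 at Nkx2-9, −1.26 at Nkx2-2 and −1.28 kb at Nkx2-4.

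None of these exceeded the gap between the 2 wild-type libraries. At 7 of 7 members the second wild-type library lay further above the first than either BAP1 knockout library did from its wild-type partner, for example by 5350 bp at Nkx2-5 and 1674 bp at Nkx2-1. The gap between the 2 BAP1 knockout libraries was smaller, and the first-pair difference exceeded it at Nkx2-5 (3119 against 2369 bp) and at Nkx2-1 (1663 against 93 bp). At 0 of 7 were both BAP1 knockout libraries above both wild-type libraries, beside 3.5% of the 3082 genes with a peak in all 4. As means, Nkx2-5 had 12.8 ± 1.68 kb in BAP1 knockout and 11.2 ± 3.78 kb in wild type, and Nkx2-6 had 4.31 ± 1.75 kb in BAP1 knockout and 3.24 ± 2.52 kb in wild type (SD, n = 2 each). Depth, MACS2 version and fragment extension changed together between first and second libraries, and their part in the spread cannot be told apart.

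The members' median ratio of covered length, BAP1 knockout over wild type, was 1.13 in the first pair and 0.995 in the second. Over the 3082 genes it was 1.71 and 1.11. Covered length cannot pass the window, of which the second wild-type library covered 100% at Nkx2-3 and 97.2% at Nkx2-1. Hoxc5, Tal1, Fezf2, Dmrt3 and Sox21, picked for covered lengths near the members' median, had 10.1 to 11.6 kb in the first BAP1 knockout library. They had 9.64 to 10.3 kb in the first wild-type library. In the second pair they had 12.5 to 14.9 kb in BAP1 knockout and 12.2 to 14.7 kb in wild type. The members were not tested against them. Domain width, which the window does not bound, gave ratios of 2.11 at Nkx2-6, 2.03 at Nkx2-5, 1.29 at Nkx2-1, 1.17 at Nkx2-9, 1.10 at Nkx2-4, 1.08 at Nkx2-2 and 1.02 at Nkx2-3 in the first pair. In the second pair it gave 1.44 at Nkx2-6 and 0.690 at Nkx2-4, and between 0.967 and 1.01 at the other 5. The ratios at Nkx2-5 and Nkx2-6 depend on how peaks were split. Joined across gaps of up to 1 kb, the Nkx2-5 domain of the first pair was 9.69 kb in BAP1 knockout and 8.03 kb in wild type, and the Nkx2-6 domain of the second pair was 5.54 kb in BAP1 knockout and 5.50 kb in wild type. Joining left the first-pair Nkx2-6 domain at 3.07 kb in BAP1 knockout and 1.46 kb in wild type.

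**Figure D5:**
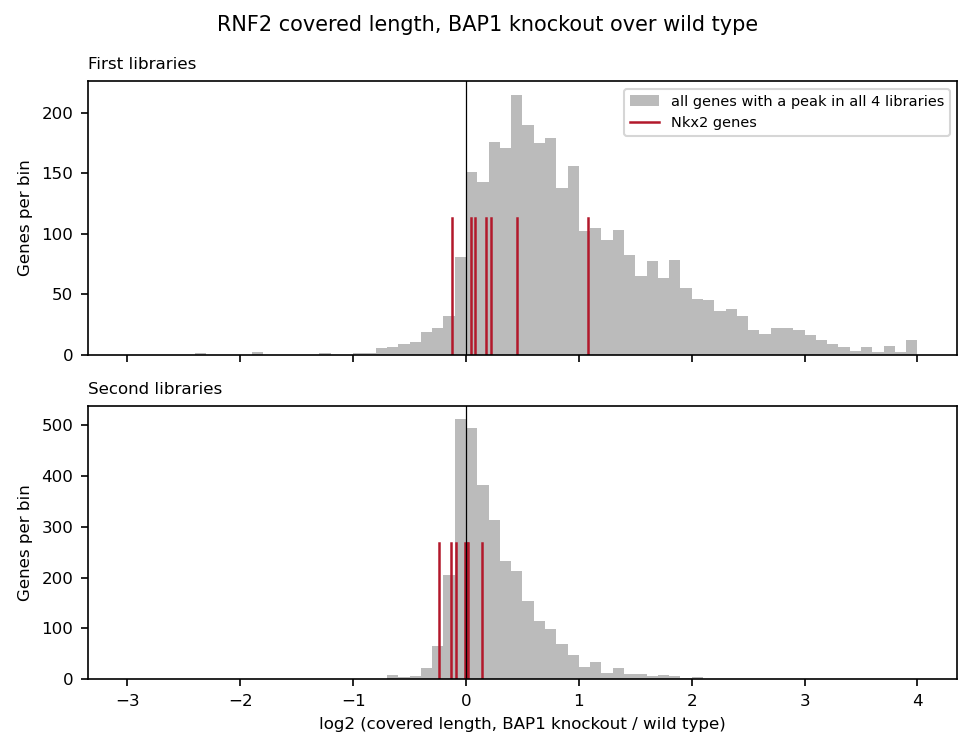
Histograms of the log2 ratio of RNF2 covered length, BAP1 knockout over wild type, for the 3082 genes with a peak in all 4 libraries (grey, genes per bin), with the 7 Nkx2 genes as red lines, in the first (top) and second (bottom) libraries. The Nkx2 genes have median ratios of 1.13 and 0.995, beside 1.71 and 1.11 for the grey distribution. Covered length cannot pass the window, which at Nkx2-3 was 100% covered in the second wild-type library. They lie to the left of the grey median, apart from Nkx2-6 in the first libraries, with a ratio of 2.11. In the second libraries Nkx2-6, at 1.10, lies close to that median.

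Other NK homeobox genes carried RNF2 as well. Nkx6-1, a factor of the ventral neural tube and beta cells, had 12.3 and 14.7 kb covered in BAP1 knockout and 12.3 and 15.3 kb in wild type, with 2.34 kb of BAP1 in C91A cells. Nkx1-1 had 7.06 and 10.9 kb in BAP1 knockout and 5.78 and 10.2 kb in wild type, with 3.01 kb of BAP1. Nkx1-2 (0.592 kb) and Nkx3-2 (0.446 kb) also had BAP1, whereas Nkx6-2 and Nkx6-3 had RNF2 in all 4 libraries and no BAP1 peak, as at Nkx2-6. Nkx6-3 had the shortest RNF2 covered length of these 6 in the first libraries, 2.51 kb in BAP1 knockout and 0.702 kb in wild type. The difference between these genes and the Nkx2 genes was not tested.

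Genes that work with the Nkx2 factors were counted by tissue. Over all protein-coding genes, 14.2% had RNF2 in all 4 libraries and 5.08% had BAP1 in C91A cells. Of 16 genes of the ventral neural tube and hypothalamus, 13 had RNF2 in all 4 libraries and 11 had BAP1, among them the patterning factors Pax7, Pax6, Foxa2 and Foxa1. Of 12 heart genes, 10 had RNF2 and 6 had BAP1, led by Tbx2, Gata4, Gata6 and Hand2. Of 13 genes of thyroid, lung and endocrine pancreas, 8 had RNF2 and 4 had BAP1, among them Insm1, Foxe1 and Pdx1. The thyroglobulin gene Tg, a target of Nkx2-1, had no peak in any library. Of 10 genes of spleen, gut and pharynx, 9 had RNF2 and 8 had BAP1, among them Tlx1, Pax1 and Tbx1. Madcam1, an endothelial adhesion gene whose expression depends on Nkx2-3, was the one not in the RNF2 set, and it had a BAP1 peak of C91A cells over 0.347 kb. Of the stem cell genes Pou5f1, Sox2, Nanog, Klf4, Esrrb and Zfp42, only Esrrb had RNF2 in all 4 libraries, and none had BAP1. The counts of the stem cell genes, unlike those of the other lists, are near the shares over all genes. Sox2 and Klf4 had RNF2 in the second library of each genotype, and Pou5f1 and Zfp42 in the second BAP1 knockout library alone. Peak lists hold no expression, so the labelled cell type could not be checked.

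Neighbouring genes differed in binding. Of the protein-coding genes within 100 kb of a member, Pax9, the pharyngeal pouch and tooth factor 78.1 kb from Nkx2-9, had 15.01 and 16.33 kb of RNF2 in BAP1 knockout and 15.20 and 16.82 kb in wild type, with 2.21 kb of BAP1. Xrn2, an exonuclease gene 5.34 kb from Nkx2-4, reached 0.619 and 1.81 kb in BAP1 knockout and 0.893 and 2.69 kb in wild type, and its highest peak is that of Nkx2-4. Crebrf, 62.0 kb from Nkx2-5, had 0.704 kb of BAP1 and no RNF2 peak in either first library. Slc25a37, near Nkx2-6, had no peak of either protein. By covered length in the 4 RNF2 libraries and the C91A library, the 5 genes nearest to the members' median, of 21758 ranked, were Hoxc5, Tal1, Fezf2, Dmrt3 and Sox21. Their distances were 0.25 to 0.33 in log2 units of covered bp plus 100. The members themselves lay at 0.52 (Nkx2-3) to 5.52 (Nkx2-6), with 13 to 996 genes nearer, so they were not a uniform group by this measure.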

How the data were processed

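ChIP-seq for RNF2 and BAP1 in mouse embryonic stem cells was read from the deposited peak lists, 1 per ChIP library. Per the submitters' processing notes, alignment was with GSNAP and the build GRCm38 (mm10). Per the file headers, MACS2 called peaks against each input with a q-value limit of 0.05. Version 2.1.0.20150420 was used for the first RNF2 libraries and both BAP1 libraries, and 2.1.1.20160309 for the RNF2 knockout and for the second library of the other RNF2 genotypes. The deposited values are the pileup signal at the summit, −log10 of the p-value and q-value, and fold enrichment (a ratio), all the authors' own. Pileup was used to find its ceiling and to compare peaks of a gene inside 1 list. Fold enrichment was used only inside 1 list, and −log10 q served as a threshold and to compare peaks inside 1 list. Fragment length was 323 bp (BAP1 knockout) and 297 bp (wild type) in the first libraries, 100 bp in the second, 50 bp in C91A and 147 bp in the BAP1 knockout control, per the file headers. The headers give 32.5 to 415 M ChIP tags per library. Since the lists hold no reads, the precision of a covered length is known only from the 2 libraries of a genotype.

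Chromosomes 1 to 19, X and Y were kept, and peaks set against RefSeq gene spans (GRCm38.p6) with Python 3.11.15 and pandas 2.3.3. From the gene table, 108 entries that end before 3 Mb (Y excepted), taken as unplaced, were removed. A gene had a peak where at least 1 bp overlapped its span plus or minus 5 kb, and covered length is the bp of that window under peaks. Interval code was tested on simulated peaks. The members and the gene lists were chosen with earlier results of these data known. Named are all members, the other NK genes, genes within 100 kb, up to 4 genes per list by BAP1 and then RNF2 fold enrichment, and the 5 genes nearest in covered length; others (Tg, Madcam1, Nkx2-2os, Gm26973) were named after their values were seen. Some genes that this rule names are not reported here. Alternatives used other windows, thresholds, overlaps, joined peaks, equal list lengths and libraries left out. The deposited inputs have no peak list here, and sequence at the BAP1 summits was not analysed here.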

Additional observations from a re-analysis of the deposited data

How the results depend on the processing

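Counts of members held in most settings. RNF2 in all 4 libraries remained at 7 of 7 with narrower windows, stricter thresholds, the summit in the window and equal list lengths. Leaving out a library or widening the window could not lower this count, so those runs do not test it. BAP1 in C91A cells dropped from 6 members to 4 at −log10 q of at least 5 and to 1 at 10. A stricter threshold can only keep or lower this count. More covered length in BAP1 knockout held for 3 members in the first pair with no flank, and for 1 in the second pair with no flank or 1 kb. The summed second-pair difference, −1.51 kb, reversed to 0.573 kb with no flank, 0.789 kb with 1 kb and 1.12 kb with the summit in the window. That of the first pair, 8.09 kb, stayed between 3.04 and 9.86 kb. BAP1 covered length fell to 6.71 and 1.59 kb, from peaks of −log10 q of at least 5 and 10, against 11.2 kb. Joining peaks across gaps moved the median domain width to 15.1 kb (3 kb) and 17.0 kb (1 or 3 kb) in the first and second BAP1 knockout libraries, and to 8.03 and 13.7 kb (1 and 3 kb) in the first and 18.1 and 20.5 kb in the second wild-type library. Reversed single values were Nkx2-4 in the first pair (0.296 kb with 1 kb flanks, 0.413 kb at −log10 q of 10), and in the second pair Nkx2-2 (0.053 kb at −log10 q of 10) and Nkx2-5 (−0.798 kb with 10 kb flanks). Of 98 alternatives for single members, 82 moved by less than the SD of that member's first-pair and second-pair differences, without a change of sign. Among them were values that went to 0 with no flank or 1 kb flanks. No cause was tested. Pairs were compared as values, with no test and so no replicate block. With 2 libraries per genotype and a pileup ceiling in the second, a genotype difference below the gap between libraries of a genotype was not detectable.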
